A study of Mus musculus with 6 samples.

Results

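The T cell receptor beta segments of mouse CD4+ T cells are described here, segment by segment, in the spleen of diabetic and control mice. Each beta chain is put together in a developing thymocyte, where the RAG recombinase joins 1 variable (V), 1 diversity (D) and 1 joining (J) segment, and splicing adds a constant region (C). The V segment carries the first and second of the loops that contact antigen, and the junction of V, D and J forms the third. Because every T cell uses 1 productive joint, the RNA of a V segment in bulk T cells reports how many cells use it and how much receptor RNA those cells hold, which cannot be told apart here. Each V segment belongs to a family with an older name (Vβ). Some Vβ families are known to bind superantigens of endogenous mouse mammary tumour viruses, which are presented by MHC class II molecules, above all by I-E, and CD4+ T cells of those families are deleted in strains that have both.

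The members were all rows of the deposited gene table whose name starts with Trbv, Trbd or Trbj and whose type carries the TR_ label. There were 47 of 28945 genes, namely 31 V segments of which 22 are of the type TR_V_gene (called functional below) and 9 are pseudogenes, 2 D segments, and 14 J segments of which 13 are functional and 1 is a pseudogene. All lie on mouse chromosome 6. The study purified CD4+ T cells from spleens of db/db mice, a strain with a defective leptin receptor that develops obesity and diabetes, and of C57BL/6J mice. Its libraries are labelled only DM (3 libraries) and CONT (3 libraries), read here as db/db and C57BL/6J. The labels name no treatment, age, sex or strain background of db/db and do not say that each library came from its own animal. The db/db mutation, the diabetes and any difference in strain therefore cannot be told apart, and the p-values reflect how these libraries vary, and that variation could be technical. Values are FPKM, fragment counts scaled to transcript length and library size. Levels are set side by side between V segments, whose V exons are of similar length. The annotated transcripts of the functional V segments have 335 to 566 bases, so these comparisons depend in part on how length was handled. Levels of the short D and J segments depend on it as well, and those of near-identical segments on how shared reads were assigned.

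The summed FPKM of all genes lay between 385070 and 410282 in DM and between 248070 and 369531 in CONT. CONT replicate 1 stood apart, with a mean correlation of 0.878 to its own group on log2(FPKM + 1), against 0.915 to 0.949 for the other libraries. Lepr, the leptin receptor, was at 0.0765, 0.0471 and 0.0225 FPKM in DM and 0, 0.0391 and 0.00966 FPKM in CONT, below the level tested, so it does not check the genotype. The 8 CD4 T cell markers summed to 568 to 850 FPKM in DM and 927 to 1057 FPKM in CONT, and 7 of 8 had a log2 difference below 0, with none called. Among all genes tested, 6713 of 13106 had a difference below 0. The sum of the 2 CD8 markers was 51.7 FPKM in DM replicate 3, 4.76 and 6.5 FPKM in the other DM libraries, and 7.51 to 8.61 FPKM in CONT, so that DM replicate 3 held CD8 T cell RNA beyond the level of the others. Of other cells, markers were higher in DM for basophils (4 of 4 called, summed 66.1 to 321 FPKM in DM and 1.86 to 6.29 FPKM in CONT) and for macrophages and monocytes (2 of 5 called, 203 to 944 FPKM in DM and 21.4 to 45.0 FPKM in CONT). For all genes tested the share called higher in DM was 1.27%. No gene was called among those of plasma cells (249 to 420 FPKM in DM and 24.7 to 118 FPKM in CONT), neutrophils (108 to 1201 FPKM in DM and 6.90 to 96.1 FPKM in CONT), erythroid cells (150 to 3213 FPKM in DM and 66.6 to 255 FPKM in CONT), B cells (8.18 to 276 FPKM in DM and 3.51 to 15.4 FPKM in CONT), gamma delta T cells (24.8 to 29.7 FPKM in DM and 13.6 to 23.2 FPKM in CONT) or natural killer T and NK cells (25.4 to 71.5 FPKM in DM and 22.9 to 40.1 FPKM in CONT). No marker was listed at 0 in all libraries. CD8 and natural killer T cells also use beta chains, and the part of these other cells in the levels below was not tested.

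The germline sequences of the segments that carry the findings are given first, from the transcripts of GENCODE M21 on GRCm38. These are the V exons of the 5 segments that were lower in DM, with Trbv12-2, the closest relative of Trbv12-1, for comparison. All 6 are on the plus strand and are printed 5′ to 3′, and capitals mark the end of the exon from the conserved cysteine codon onward, which is the germline start of the third loop. Trbv3, without the first bases of its exon, spans chr6:41048529-41048828, Trbv12-1 chr6:41113775-41114067, Trbv12-2 chr6:41119072-41119364, Trbv15 chr6:41141361-41141658, Trbv16 chr6:41151933-41152230 and Trbv23 chr6:41216229-41216526.
Trbv3: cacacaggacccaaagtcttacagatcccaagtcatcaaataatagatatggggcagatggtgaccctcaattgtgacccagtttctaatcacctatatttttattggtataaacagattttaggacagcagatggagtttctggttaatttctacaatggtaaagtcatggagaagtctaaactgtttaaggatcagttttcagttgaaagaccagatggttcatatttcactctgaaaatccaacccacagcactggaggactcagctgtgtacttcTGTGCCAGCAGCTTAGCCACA
Trbv12-1: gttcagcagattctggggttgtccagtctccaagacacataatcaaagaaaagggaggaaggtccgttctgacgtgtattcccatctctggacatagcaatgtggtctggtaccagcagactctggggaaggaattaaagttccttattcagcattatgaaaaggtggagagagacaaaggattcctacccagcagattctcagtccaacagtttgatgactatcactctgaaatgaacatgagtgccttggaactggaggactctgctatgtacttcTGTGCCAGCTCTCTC
Trbv12-2: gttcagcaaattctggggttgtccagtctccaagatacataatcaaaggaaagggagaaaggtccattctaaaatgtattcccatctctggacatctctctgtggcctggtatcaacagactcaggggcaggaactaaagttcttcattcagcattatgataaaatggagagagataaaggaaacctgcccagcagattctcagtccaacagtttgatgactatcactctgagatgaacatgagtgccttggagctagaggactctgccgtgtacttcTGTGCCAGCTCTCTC
Trbv15: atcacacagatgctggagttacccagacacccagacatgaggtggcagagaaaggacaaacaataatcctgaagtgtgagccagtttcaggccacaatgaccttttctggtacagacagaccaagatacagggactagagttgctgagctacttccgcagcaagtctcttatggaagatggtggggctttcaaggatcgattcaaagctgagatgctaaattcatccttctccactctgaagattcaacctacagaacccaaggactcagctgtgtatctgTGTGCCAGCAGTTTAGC
Trbv16: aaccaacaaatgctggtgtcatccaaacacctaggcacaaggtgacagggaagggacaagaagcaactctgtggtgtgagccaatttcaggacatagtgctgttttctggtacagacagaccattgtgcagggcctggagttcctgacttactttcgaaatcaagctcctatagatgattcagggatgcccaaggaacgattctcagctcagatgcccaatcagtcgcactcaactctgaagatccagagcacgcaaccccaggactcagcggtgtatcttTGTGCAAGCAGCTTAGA
Trbv23: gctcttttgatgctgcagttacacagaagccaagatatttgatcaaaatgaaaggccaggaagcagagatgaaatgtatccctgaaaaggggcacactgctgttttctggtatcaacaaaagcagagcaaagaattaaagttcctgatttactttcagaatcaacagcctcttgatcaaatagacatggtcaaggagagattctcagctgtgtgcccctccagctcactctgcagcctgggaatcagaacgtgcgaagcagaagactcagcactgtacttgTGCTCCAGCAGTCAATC

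The V exons of Trbv12-1 and Trbv12-2 were identical at 89.1% of aligned bases, with a longest shared run of 44 bases. Reads inside such a run fit both, and no source used here says how the authors' program assigned them, so the split between these 2 segments is uncertain. The other pairs among the 5 were less alike. Trbv15 and Trbv16 shared 73.9% of aligned bases with a longest run of 21, and the remaining pairs of the 5 shared 57.2% to 62.0%. Outside the 5, the closest relative of Trbv23 was Trbv26, at 74.2%, and that of Trbv3 was Trbv15.

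Of the 47 segments, 38 reached a mean of 1 FPKM in DM or CONT and were tested, and all 38 reached it in both groups. The other 9 were Trbv21 and 8 V pseudogenes. Trbv21, a V segment of family Vβ19, had 0.761, 0.894 and 0.635 FPKM in DM and 0.658, 1.22 and 0.773 FPKM in CONT, in the order of replicates 1, 2 and 3 that is kept below. The 8 pseudogenes had values of 0 to 1.27 FPKM, with 29 of 48 values listed at 0. The remaining pseudogene, Trbv24 of family Vβ17, was higher than these, at 2.37, 3.72 and 2.80 FPKM in DM and 3.81, 4.87 and 6.11 FPKM in CONT. The functional V segments that were tested covered 0.808 to 200 FPKM.

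In DM, 5 V segments fell and no V, D or J segment rose: Trbv15, Trbv3, Trbv16, Trbv23 and Trbv12-1. Of the 38 tested segments, 5 (13.2%) were called lower at a limma adjusted p below 0.05 (Benjamini-Hochberg over 13106 genes), where 0.252% of all genes tested were called lower. None of the 38 was called higher, where 1.27% of all genes were, and calls in either direction made up 1.52% of all genes. The median log2 difference, DM minus CONT, was -0.25 over the 38 segments and -0.01 over all genes. The value for the segments was -0.09 without CONT replicate 3, -0.12 without DM replicate 3 and -0.44 without DM replicate 2.

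**Figure D1:**
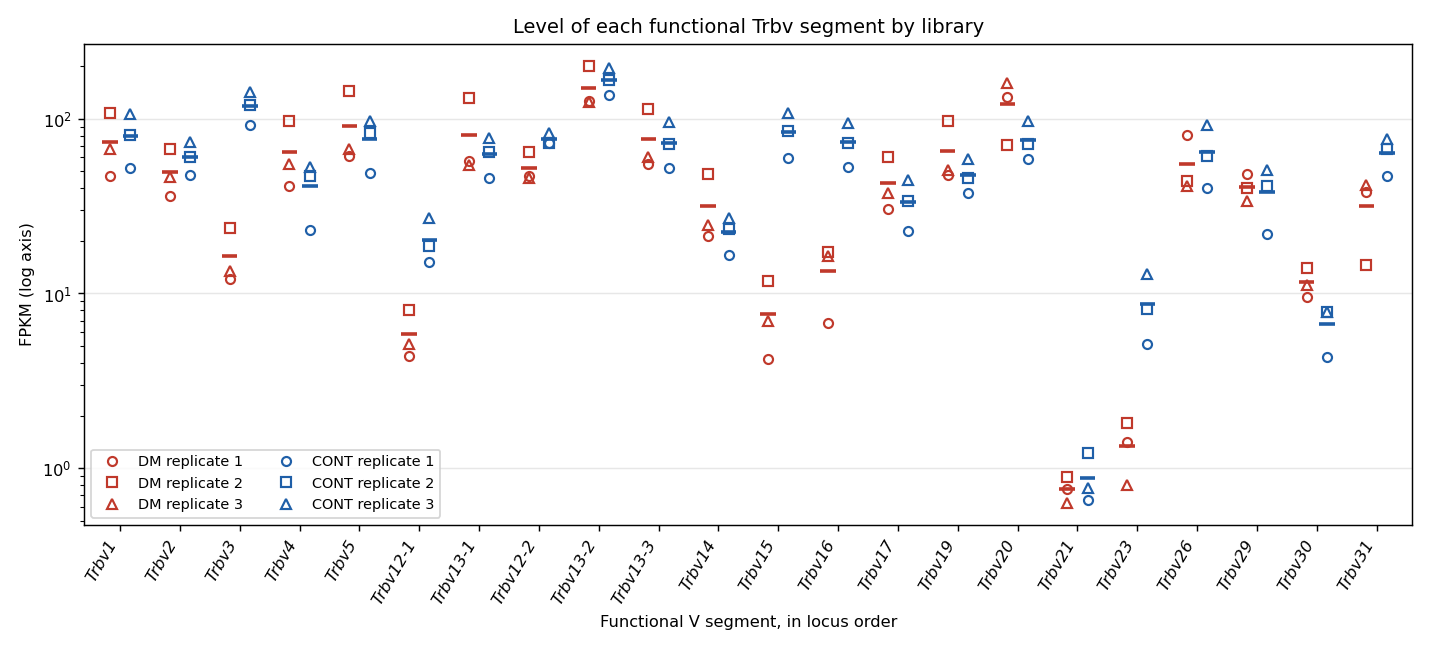
FPKM of the 22 functional V segments (log axis) in each of 3 DM libraries (red, left) and 3 CONT libraries (blue, right), in locus order, with horizontal lines at the group means. Trbv3, Trbv12-1, Trbv15, Trbv16 and Trbv23 lie below every CONT library in all 3 DM libraries, and Trbv13-2 is the highest segment on average in both groups.

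Trbv15, the segment of family Vβ12, had 4.22, 11.7 and 7.0 FPKM in DM, against 59.3, 84.8 and 107 FPKM in CONT. Its highest DM value lay far below its lowest CONT value, and the mean was 11-fold lower in DM. The log2 difference was -3.35 ± 0.37 (SE; limma adjusted p = 0.0114, Benjamini-Hochberg).

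Trbv3, of family Vβ16, was at 12.1, 23.7 and 13.4 FPKM in DM and at 91.4, 119 and 143 FPKM in CONT. The groups did not overlap, and the DM mean was 7.16-fold lower. Its log2 difference was -2.80 ± 0.31 (SE; limma adjusted p = 0.0114, Benjamini-Hochberg). The gene of Trbv3 starts 0.95 kb after the start of Trbv2, its neighbour of family Vβ4, which was at 36.2, 67.0 and 46.1 FPKM in DM and 47.5, 59.97 and 73.1 FPKM in CONT. The ratio of Trbv3 to Trbv2 was 0.334, 0.354 and 0.291 in DM and 1.92, 1.98 and 1.95 in CONT. Within each group that ratio varied little, so the order of these neighbours was turned round in every DM library. This ratio and those below were chosen after their values were seen and are given without a test.

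Trbv16, of family Vβ11, was at 6.82, 17.2 and 16.3 FPKM in DM and at 53.1, 72.6 and 94.8 FPKM in CONT, with a log2 difference of -2.43 ± 0.38 (SE; limma adjusted p = 0.0340, Benjamini-Hochberg). It lies between Trbv15 and Trbv17, and Trbv17, of family Vβ9, was at 30.4, 59.9 and 37.8 FPKM in DM and 22.7, 33.6 and 44.3 FPKM in CONT. The ratio of Trbv16 to Trbv17 was 0.225 to 0.431 in DM and 2.14 to 2.34 in CONT, and that of Trbv15 to Trbv14, its neighbour on the other side, was 0.199 to 0.284 in DM and 3.56 to 3.97 in CONT. Trbv15 and Trbv16 thus were low side by side, between neighbours whose groups overlapped.

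Trbv23, of family Vβ20, was the least used of the 5, at 1.41, 1.81 and 0.808 FPKM in DM and 5.14, 8.14 and 12.9 FPKM in CONT. Its mean was 6.49-fold lower in DM, with a log2 difference of -1.996 ± 0.33 (SE; limma adjusted p = 0.0385, Benjamini-Hochberg), a scale that understates the change of low genes. Trbv26, of family Vβ3 and its closest relative by sequence, was at 80.4, 44.2 and 41.0 FPKM in DM and 40.4, 61.5 and 92.4 FPKM in CONT, and these ranges overlapped.

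Trbv12-1, of family Vβ5.2, was at 4.38, 8.09 and 5.16 FPKM in DM and 15.2, 18.7 and 26.9 FPKM in CONT, with a log2 difference of -1.63 ± 0.28 (SE; limma adjusted p = 0.0459, Benjamini-Hochberg). Trbv12-2, of family Vβ5.1, was at 46.7, 64.2 and 46.0 FPKM in DM and 72.4, 72.5 and 83.0 FPKM in CONT. These groups also did not overlap, but the log2 difference of -0.54 ± 0.23 (SE) missed the threshold (limma adjusted p = 0.312, Benjamini-Hochberg). The ratio of Trbv12-1 to Trbv12-2 was 0.0938, 0.126 and 0.112 in DM and 0.209, 0.258 and 0.324 in CONT.

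How many of the 5 passed depended on the libraries: 0 without DM replicate 1 or without DM replicate 3, 2 without DM replicate 2, CONT replicate 2 or CONT replicate 3, and 5 without CONT replicate 1, each fit having fewer samples. The log2 difference stayed between -3.68 and -3.03 for Trbv15 and between -3.15 and -2.63 for Trbv3 over 16 alternatives, with 13 of 16 past the threshold for each. With no filter on low values, under which 28 of all genes were called, none of the 5 passed, and the adjusted p of Trbv3 was 0.0579 and of Trbv15 0.0606 (limma, Benjamini-Hochberg). In the authors' deposited table a flag for changed genes marks 7 Trb segments, all lower in DM; they are these 5 with Trbv31 and Trbj1-7, whose q-values in the authors' deposited table are 0.234 and 0.232.

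**Figure D2:**
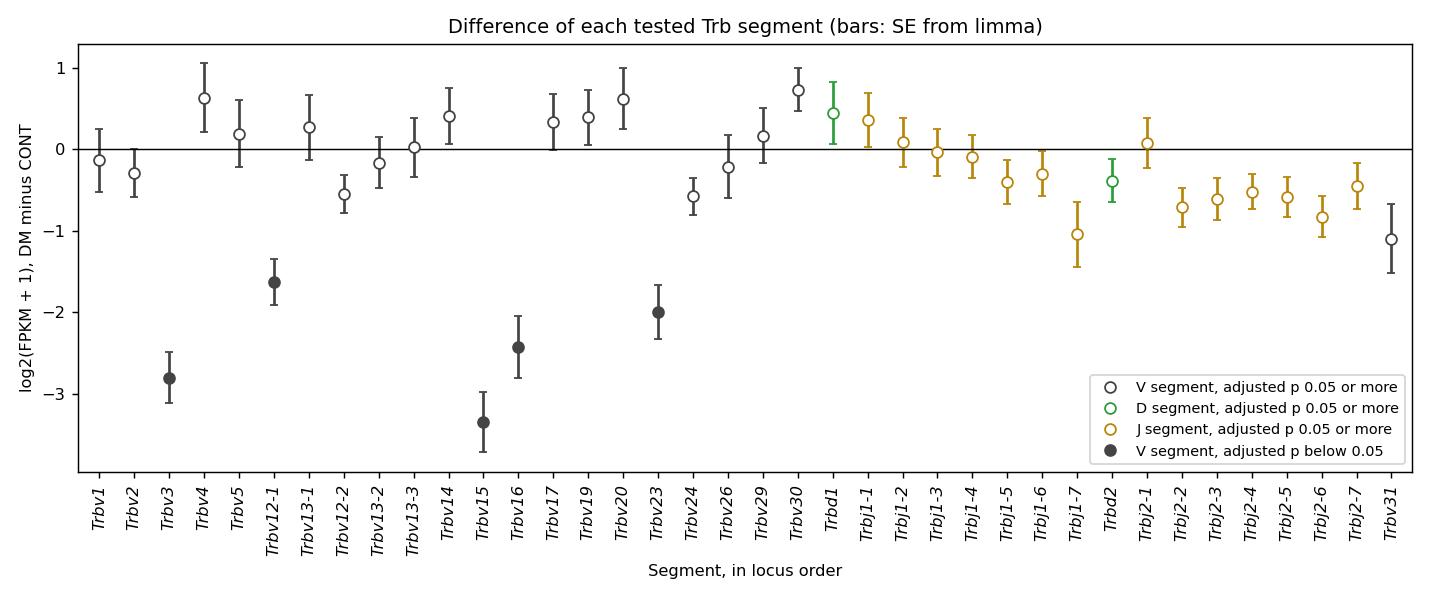
Log2 difference, DM minus CONT, of log2(FPKM + 1) with its SE for the 38 tested V, D and J segments in locus order; filled points passed a limma adjusted p below 0.05. The 5 filled points run from -1.63 to -3.35, and the open points lie between -1.10 and 0.73.

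Among the other 17 tested V segments none passed. Trbv31, of family Vβ14, is the single V segment downstream of the constant regions, in inverted orientation, 24.5 kb from Trbd1. It was at 38.1, 14.6 and 41.7 FPKM in DM and 47.2, 67.2 and 76.5 FPKM in CONT, with a log2 difference of -1.10 ± 0.42 (SE; limma adjusted p = 0.288, Benjamini-Hochberg). The DM values lay below the CONT values, and DM replicate 2 was lowest. Trbv30, of family Vβ18, was the segment with the largest positive difference, at 9.57, 13.96 and 11.1 FPKM in DM and 4.32, 7.87 and 7.84 FPKM in CONT (log2 difference 0.73 ± 0.26 SE; limma adjusted p = 0.262, Benjamini-Hochberg). The FPKM values of the groups did not overlap in 15 of 38 segments with DM below CONT (39.5%) and in 1, Trbv30, with DM above CONT (2.63%), where the shares over all genes tested were 13.2% and 13.8%. At an unadjusted p below 0.05 limma gave 13 lower and 1 higher segment, against 6.24% and 9.77% of all genes.

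Summed over the V segments, FPKM as deposited overlapped between the groups. The sum was 911, 1380 and 968 FPKM in DM and 959, 1306 and 1626 FPKM in CONT (exact permutation test, two-sided, p = 0.6). With 3 libraries against 3 such a test cannot go below 0.1. Summed FPKM of all genes differed between libraries, and as a percentage of it all Trb segments together made up 0.5005%, 0.757% and 0.554% in DM and 0.961%, 0.824% and 0.903% in CONT, without overlap. Whether the groups separate thus depended on that scaling. The J segments summed to 999, 1416 and 1035 FPKM in DM and 1322, 1240 and 1509 FPKM in CONT (exact permutation p = 0.3, two-sided). Trbc1 and Trbc2, the 2 constant regions, together had 1163, 1687 and 1215 FPKM in DM and 889, 1251 and 1832 FPKM in CONT. The constant regions thus overlapped between the groups as well. The sum of functional V over the sum of C was 0.781, 0.815 and 0.794 in DM and 1.07, 1.04 and 0.883 in CONT, a description without a test in which every DM library lay below every CONT library.

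To set aside how much receptor RNA a library holds, each functional V segment was given as a percentage of summed functional Trbv FPKM. Trbv16 took 0.751%, 1.25% and 1.69% in DM and 5.57%, 5.58% and 5.86% in CONT. Trbv15 took 0.465%, 0.852% and 0.726% in DM and 6.22%, 6.52% and 6.63% in CONT. For both segments the CONT libraries were close, although CONT replicate 1 stood apart over all genes. Trbv3 ranked 16 of 22 in DM, at 1.48% ± 0.212, and 2 of 22 in CONT, at 9.18% ± 0.380 (SD, n = 3 each). Trbv12-1 took 0.535% ± 0.0531 in DM and 1.56% ± 0.113 in CONT, and Trbv23 0.124% ± 0.0364 in DM and 0.653% ± 0.131 in CONT (SD, n = 3 each). Together the 5 made up 3.19%, 4.55% and 4.42% of V use in DM and 23.5%, 23.3% and 23.8% in CONT. As the 5 were chosen by their difference, this sum is a description.

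**Figure D3:**
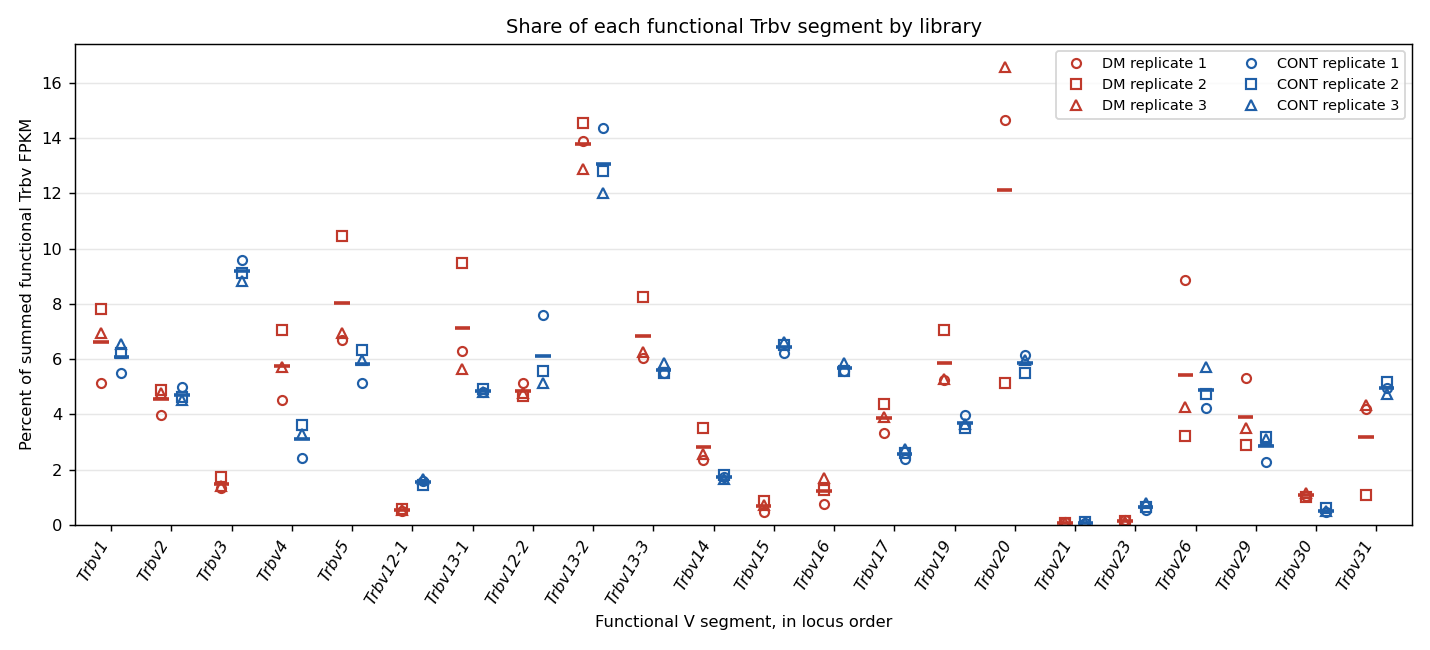
Percentage of summed functional Trbv FPKM taken by each of 22 functional V segments, in each of 3 DM libraries (red, left) and 3 CONT libraries (blue, right), with lines at the group means. The CONT libraries lie close together for most segments; in DM, Trbv20 took 14.7%, 5.13% and 16.6% and Trbv26 8.85%, 3.22% and 4.25%.

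Shares must sum to 100%, so a smaller part for some segments is a larger one for others. Of the 22 shares, 6 were lower in all DM libraries than in any CONT library (the 5 and Trbv31), 8 were higher and 8 overlapped. With each library divided by the same V sum, 1.61% of all genes tested lay below in this way and 17.5% above. The 8 higher ones were Trbv4, Trbv5, Trbv13-1, Trbv13-3, Trbv14, Trbv17, Trbv19 and Trbv30. Trbv4, of family Vβ10, took 4.51%, 7.05% and 5.71% in DM and 2.41%, 3.60% and 3.27% in CONT. Trbv19, of family Vβ6, took 5.24%, 7.04% and 5.28% in DM and 3.96%, 3.50% and 3.65% in CONT. Trbv5, of family Vβ1, averaged 8.04% ± 2.10 in DM and 5.81% ± 0.607 in CONT, and Trbv14, of family Vβ13, 2.80% ± 0.631 in DM and 1.74% ± 0.0594 in CONT (SD, n = 3 each). Trbv13-1 and Trbv13-3, of families Vβ8.3 and Vβ8.1, are close copies of Trbv13-2, and the 3 together took 26.2%, 32.3% and 24.8% in DM and 24.7%, 23.2% and 22.7% in CONT. Alone, Trbv13-1 averaged 7.14% ± 2.06 in DM and 4.85% ± 0.0740 in CONT, and Trbv13-3 6.84% ± 1.21 in DM and 5.62% ± 0.218 in CONT (SD, n = 3 each). Each separated share had an exact permutation p of 0.1 (two-sided, 0.157 after Benjamini-Hochberg adjustment over the 22 shares), the smallest this design gives.

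Trbv13-2, of family Vβ8.2, was the most used segment in both groups, at 13.8% ± 0.840 in DM and 13.1% ± 1.19 in CONT (SD, n = 3 each). Trbv2 took 4.55% ± 0.485 in DM and 4.70% ± 0.247 in CONT, and Trbv1, of family Vβ2 and the segment farthest from the D segments, 6.64% ± 1.36 in DM and 6.08% ± 0.534 in CONT (SD, n = 3 each). These ranges overlapped. Next to Trbv13-2 in DM stood Trbv20, of family Vβ15, with a share of 5.13% in DM replicate 2 but 14.7% and 16.6% in the other DM libraries, against 5.49% to 6.14% in CONT.

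The DM libraries differed more among themselves than the CONT libraries for several segments. The highest share over the lowest was 3.23 for Trbv20, 4.06 for Trbv31, 2.75 for Trbv26 and 1.83 for Trbv29, of family Vβ7, in DM, and 1.12, 1.09, 1.35 and 1.39 for the same segments in CONT. Trbv31 took 1.06% in DM replicate 2, 4.20% and 4.32% in the other DM libraries, and 4.73% to 5.17% in CONT. The same library had the highest shares of Trbv5 (10.5%) and Trbv13-1 (9.49%) of all 6. DM replicate 1 had the highest share of Trbv26 (8.85%) and of Trbv29 (5.33%). The called segments varied within DM as well, by 2.25 for Trbv16, 1.85 for Trbv23 and 1.83 for Trbv15, against 1.05, 1.48 and 1.07 in CONT. Trbv15 and Trbv16 were lowest in DM replicate 1.

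The evenness of V use was read from 1 number per library. The effective number of functional V segments, the number of equally used segments that would give the same Shannon entropy, was 15.2, 15.4 and 15.5 in DM and 17.1, 17.8 and 17.9 in CONT. The groups did not overlap (exact permutation test, two-sided, p = 0.1, the smallest possible). The difference was -2.25 and stayed between -2.50 and -1.91 over 8 alternatives.

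A list of 9 V segments whose families are known to react with mammary tumour virus superantigens was Trbv12-1, Trbv12-2, Trbv13-3, Trbv15, Trbv16, Trbv17, Trbv19, Trbv26 and Trbv29. It was chosen with earlier results of these data known, so its counts and p-value are no independent test. Of these 9 segments, 3 fell (Trbv12-1, Trbv15 and Trbv16) and 6 did not pass, where 0.252% of all genes tested were called lower. Of the 9 differences 5 were below 0 and 4 above, and the median log2 difference was -0.21. Of the other 12 tested functional V segments 2 fell (Trbv3 and Trbv23), with a median of 0.03. The list took 35.6%, 33.1% and 30.9% of V use in DM and 39.3%, 38.6% and 40.4% in CONT (exact permutation test, two-sided, p = 0.1). The mean shares of the 3 that fell were lower in DM. That of Trbv12-2, which did not pass, was lower as well, with overlapping ranges. It averaged 4.86% ± 0.247 in DM and 6.10% ± 1.31 in CONT (SD, n = 3 each). The 6 members that did not pass together took 33.9%, 30.4% and 27.9% in DM and 25.9%, 25.1% and 26.2% in CONT, higher in every DM library. As the 6, which include Trbv12-2, were split off by their calls, this sum is a description. A smaller share for the called segments gives the rest larger shares by arithmetic. All called V segments together averaged 4.05% in DM and 23.5% in CONT. The higher sum of the 6 therefore cannot tell whether their use rose.

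The list of MHC class II genes holds the chains that present superantigens, and also Cd74, Ciita and the H2-DM and H2-O genes, which do not. All of its tested genes had log2 differences above 0 in the same libraries, as did 6393 of 13106 genes tested. The sign did not always hold in each DM library. The smallest difference was 0.03, for H2-Ob. It was at 2.54, 4.33 and 22.2 FPKM in DM and 7.14, 6.22 and 5.95 FPKM in CONT. Of 12 tested, 1 rose, where 1.27% of all genes were called higher. This gene was H2-Ea, the alpha chain of I-E, which C57BL/6 mice are known not to transcribe. It was at 18.2, 38.5 and 269 FPKM in DM and was listed at 0, 0 and 0.732 FPKM in CONT, with a log2 difference of 5.62 ± 0.88 (SE; limma adjusted p = 0.0338, Benjamini-Hochberg). The 12 genes summed to 154, 215 and 1377 FPKM in DM and 74.4, 48.9 and 75.0 FPKM in CONT. DM replicate 3, the highest, was also highest for B cell markers (276 FPKM, with 12.4 and 8.18 FPKM in DM replicates 1 and 2), macrophage markers (944 FPKM, with 390 and 203 FPKM) and neutrophil markers (1201 FPKM, with 115 and 108 FPKM), and the part of these cells in the MHC class II levels was not tested. The median log2 difference of the 12 genes was 1.92. H2-Eb1, the beta chain of I-E, was read in both groups, at 15.98, 22.9 and 148 FPKM in DM and 7.55, 5.01 and 9.82 FPKM in CONT, and missed the threshold (limma adjusted p = 0.243, Benjamini-Hochberg). Within DM, H2-Ea was highest in replicate 3 as well. The part of H2-Ea in the V levels was not tested.

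Along the locus the 5 low segments were not in one block. Counted from Trbd1, with minus for upstream, Trbv3 started at -485 kb, Trbv12-1 at -420 kb, Trbv15 at -392.0 kb, Trbv16 at -381 kb and Trbv23 at -317 kb. Segments with overlapping shares or higher shares lay between them, such as Trbv4 and Trbv5 after Trbv3 and Trbv13-1 to Trbv14 before Trbv15. Over the 20 tested plus-strand functional V segments, the Spearman correlation of position with level was -0.25 for DM means and -0.43 for CONT means, and with the log2 difference 0.22, given as a description since the segments share their libraries. The distal segment Trbv1, at -642 kb, was at a mean of 73.7 ± 30.8 FPKM in DM and 79.7 ± 26.7 FPKM in CONT (SD, n = 3 each).

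**Figure D4:**
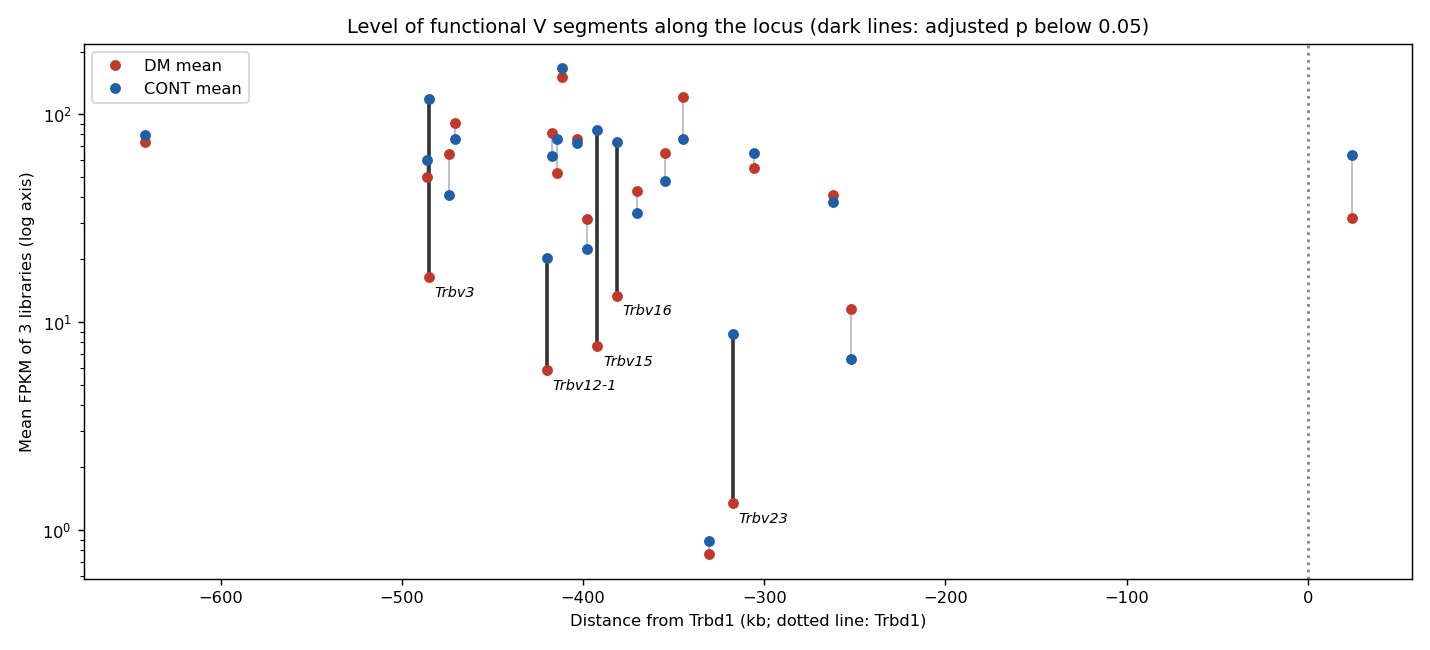
Mean FPKM (log axis) of the 22 functional V segments in DM (red) and CONT (blue) against distance from Trbd1 in kb; a line joins the means of each segment and is dark where the adjusted p was below 0.05. The 5 dark lines, from Trbv3 at -485 kb to Trbv23 at -317 kb, stand among segments whose means lie close together.

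The D and J segments sit in 2 clusters, each with 1 D segment, its J segments and its own constant region. The sequences below are the D segments whole and 6 J segments, the 3 with the highest mean FPKM in DM and the 3 without the motif, with capitals marking the motif of TTNGG, any 4 bases and GG, which spells the phenylalanine and glycine codons that close the third loop. All are on the plus strand. Trbd1 spans chr6:41533201-41533212, Trbd2 chr6:41542163-41542176, Trbj1-1 chr6:41533864-41533911, Trbj1-6 chr6:41535554-41535606, Trbj1-7 chr6:41535642-41535687, Trbj2-1 chr6:41542754-41542803, Trbj2-6 chr6:41543598-41543645 and Trbj2-7 chr6:41543810-41543856.
Trbd1: gggacagggggc
Trbd2: gggactgggggggc
Trbj1-1: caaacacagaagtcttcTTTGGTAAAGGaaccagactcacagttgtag
Trbj2-1: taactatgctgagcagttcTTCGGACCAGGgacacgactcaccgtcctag
Trbj2-7: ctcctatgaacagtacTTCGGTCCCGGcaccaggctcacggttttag
Trbj1-6: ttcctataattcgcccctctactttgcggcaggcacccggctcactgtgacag
Trbj1-7: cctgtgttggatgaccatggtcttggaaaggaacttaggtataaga
Trbj2-6: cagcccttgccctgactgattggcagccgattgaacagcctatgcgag

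The motif was found on the coding strand of 11 of 14 J segments and on the reverse strand of 0, and is missing from Trbj1-6, Trbj1-7 and Trbj2-6. Of these, Trbj2-6 is the pseudogene. Trbj1-7 and Trbj2-6 were the lowest J segments on average in DM, at 18.3 ± 1.07 and 21.4 ± 3.68 FPKM (SD, n = 3), and in CONT they were at 43.4 ± 26.4 and 39.3 ± 10.4 FPKM (SD, n = 3). Trbj1-6 was higher, at 60.5, 83.3 and 51.0 FPKM in DM and 96.0, 69.5 and 71.9 FPKM in CONT. The lowest pair of J segments thus lacked the motif, as did another at a middle level.

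None of the 14 J segments and neither D segment passed the test. Of the J segments 11 had a log2 difference below 0, and their median was -0.43. The 6 with an unadjusted p below 0.05 in limma were Trbj1-7, Trbj2-2, Trbj2-3, Trbj2-4, Trbj2-5 and Trbj2-6, all lower in DM, with adjusted p of 0.203 to 0.308 (limma, Benjamini-Hochberg), and 6.24% of all genes tested were lower at that unadjusted threshold. Trbj2-2 was at 32.0, 48.9 and 38.3 FPKM in DM and 70.0, 57.9 and 67.0 FPKM in CONT. Trbj1-7 was at 17.03, 18.8 and 18.9 FPKM in DM and 73.2, 34.2 and 22.8 FPKM in CONT, where replicate 1 was highest. FPKM values of 7 of the 14 J segments (50%) lay below CONT in every DM library, where 13.2% of all genes tested did.

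The functional segments of cluster 2 took 46.7%, 44.1% and 51.1% of functional J FPKM in DM and 50.2%, 53.8% and 56.0% in CONT, and these ranges overlapped (exact permutation test, two-sided, p = 0.2). Each D segment is the first element of its cluster. Trbd2 was at 53.6, 57.9 and 48.6 FPKM in DM and 50.8, 75.9 and 88.2 FPKM in CONT, and Trbd1 at 89.1, 159 and 82.2 FPKM in DM and 53.6, 75.4 and 112 FPKM in CONT. Trbd2 made up 37.6%, 26.7% and 37.2% of the D sum in DM and 48.7%, 50.1% and 44.0% in CONT. The D segments have 12 and 14 bases and the J segments 46 to 53, and the sources used here say nothing of how length was handled for features this short. Trbc2 made up 50.3%, 49.4% and 55.4% of the constant region sum in DM and 64.1%, 60.4% and 59.0% in CONT, without overlap. Neither constant region passed the test: Trbc1 was at 578, 854 and 542 FPKM in DM and 319, 496 and 752 FPKM in CONT, and Trbc2 at 585, 833 and 673 FPKM in DM and 569, 756 and 1081 FPKM in CONT.

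**Figure D5:**
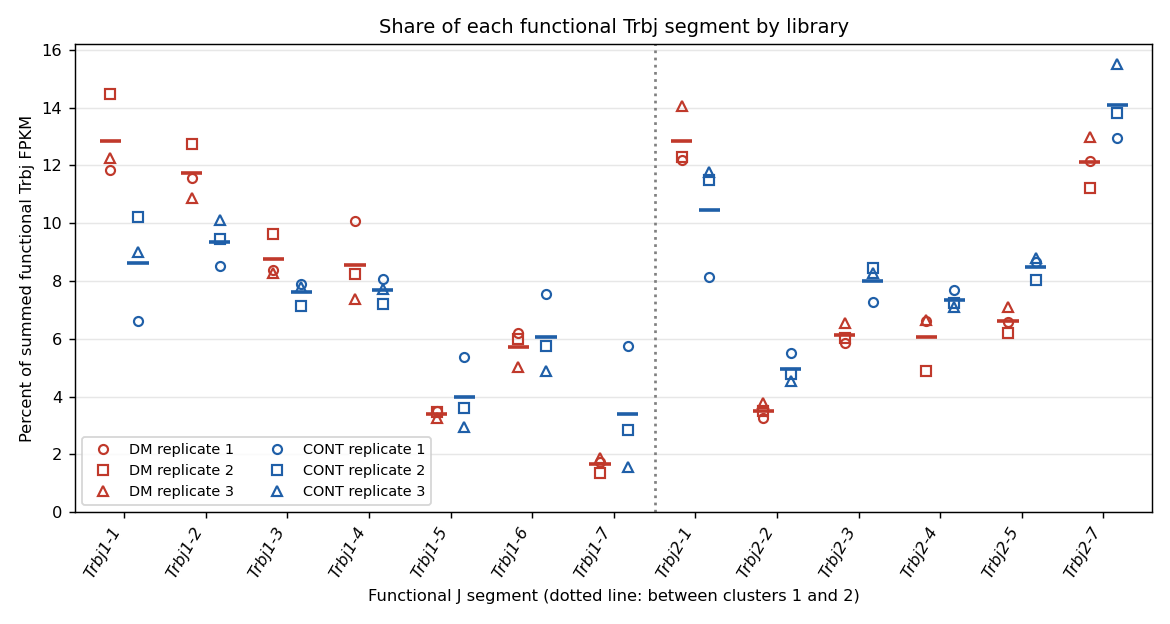
Percentage of summed functional Trbj FPKM taken by each of 13 functional J segments, in each of 3 DM libraries (red, left) and 3 CONT libraries (blue, right), with lines at the group means; the dotted line separates the clusters. Trbj1-1, Trbj1-2, Trbj1-3 and Trbj2-1 lie higher and Trbj2-2 to Trbj2-5 lower in all DM libraries.

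Within the J segments, 4 shares were lower in all DM libraries than in any CONT library (Trbj2-2, Trbj2-3, Trbj2-4 and Trbj2-5) and 4 were higher (Trbj1-1, Trbj1-2, Trbj1-3 and Trbj2-1). Divided by the same J sum, 2.95% of all genes tested lay below in this way and 17% above. Trbj1-1, the first J segment after Trbd1, took 11.9%, 14.5% and 12.3% in DM and 6.60%, 10.2% and 9.02% in CONT. Trbj1-2 averaged 11.7% ± 0.950 in DM and 9.36% ± 0.792 in CONT, and Trbj1-5, with Trbj1-7 the lowest of cluster 1, 3.41% ± 0.128 in DM and 3.97% ± 1.26 in CONT (SD, n = 3 each). Trbj2-1, the first after Trbd2, took 12.2%, 12.3% and 14.1% in DM and 8.12%, 11.5% and 11.8% in CONT. Trbj2-7, the last J segment of its cluster, took 12.1% ± 0.889 in DM and 14.1% ± 1.29 in CONT, where it was the most used (SD, n = 3 each), and its ranges overlapped. Trbj2-4, with Trbj2-2 the lowest functional pair of cluster 2, took 6.05% ± 1.01 in DM and 7.34% ± 0.315 in CONT (SD, n = 3 each). Trbj2-5 took 6.63% ± 0.459 in DM and 8.49% ± 0.409 in CONT (SD, n = 3 each). Each separated J share had an exact permutation p of 0.1 (two-sided, 0.163 adjusted over the 13 shares).

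Other genes of the receptor and of recombination gave no call. Among 8 genes of receptor constants, CD3 chains and Cd4, none passed, 6 had log2 differences below 0 and the median was -0.26. Cd3e, a signalling chain of the receptor, was at 35.2, 56.0 and 42.6 FPKM in DM and 136, 74.5 and 74.1 FPKM in CONT, and Cd4, the coreceptor, at 82.4, 134 and 93.2 FPKM in DM and 220, 161 and 149 FPKM in CONT. Both were lower in every DM library, as were 13.2% of all genes tested, but missed the threshold (limma adjusted p = 0.211 and 0.292, Benjamini-Hochberg). The other signalling chains Cd3d, Cd3g and Cd247 overlapped between the groups, with log2 differences of -0.03, 0.20 and -0.36. Of 13 genes of V(D)J recombination and end joining 11 were tested, with none called, 8 log2 differences above 0 and a median of 0.31. The recombinase genes Rag1 and Rag2, which act in developing lymphocytes, were below the level tested. Rag1 averaged 0.158 ± 0.0545 FPKM in DM and 0.0233 ± 0.0114 FPKM in CONT, and Rag2 0.131 ± 0.0560 FPKM in DM and 0.0176 ± 0.0183 FPKM in CONT (SD, n = 3 each). For both genes every DM library lay above every CONT library. Over the genes tested, which leave out Rag1 and Rag2, the share was 13.8%. Both were at 0.22 FPKM or less in every library and were named after their values were seen.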

How the data were processed

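RNA-seq of 6 libraries of splenic CD4+ T cells, 3 DM and 3 CONT, was used as the authors deposited it, in 1 table of 28945 genes with FPKM, their fold (a ratio), its log2, and their p-values and q-values, which were used only where the text names the authors' deposited table. Cutadapt 1.9, FastQC and GRCm38 are named, per the submitters' processing notes; no source used here names the aligner, the quantifier, the strand setting or the treatment of near-identical segments. The deposited FPKM are not whole numbers and no read counts were used, so depth is unknown and no counting interval is given.

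From these values log2(FPKM + 1) was fitted with limma 3.58.1 in R 4.3.3 (trend and robust) over the 13106 genes with a mean of at least 1 FPKM in DM or CONT, and p-values were adjusted by Benjamini-Hochberg over all of them. A gene was called below an adjusted p of 0.05. Fold changes on this scale understate those of low genes. The fit was tested on simulated data in 5 runs, each with 200 of 13106 genes changed. It called 13.6% of genes changed by a log2 of 1 and 61.8% of those changed by a log2 of 2. The simulated noise was independent between genes, so shifts shared by many genes of a library were not part of it. Values of 1 number per library were compared by exact permutation tests, two-sided. Segment sequences and positions came from GENCODE M21 on GRCm38, in which all 47 segments were matched by gene ID; V exons were aligned in pairs over their whole length with Biopython 1.88. Named with values are all functional V segments at a mean of 1 FPKM or more, called segments, the 2 highest and 2 lowest J segments of each cluster, pseudogenes at that level and set genes of the lists; genes outside this rule, such as H2-Eb1, Lepr, Rag1, Rag2 and Trbj1-6, were named after their values were seen. The members and lists were chosen with earlier results of these data known. Alternatives were other scalings, pseudocounts, filters, thresholds, a replicate block and leaving out each library.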

Additional observations from a re-analysis of the deposited data

How the results depend on the processing

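The count of Trb segments called lower in DM was 5, and 4 or 5 under upper quartile, total or constant region scaling, pseudocounts of 0.5 and 0.1, a filter at 0.5 FPKM, limma with neither trend nor robust, and an adjusted p below 0.1. It was 2 under median of ratios scaling and 0 with no filter, under which more genes were tested. At an unadjusted p below 0.05 it was 13 lower and 1 higher. Leaving out 1 library gave 0 to 5 lower, each fit having fewer samples. With the replicate number as a block it was 3, but the numbers only name the libraries: deviations of same-numbered DM and CONT libraries correlated at -0.36, -0.38 and -0.20. The cause of the drop under median of ratios scaling and under the block was not tested. Over 16 alternatives each, Trbv15 and Trbv3 passed in 13, Trbv16 in 9, Trbv23 in 8 and Trbv12-1 in 7, with highest adjusted p of 0.0606, 0.0579, 0.129, 0.146 and 0.178 (limma, Benjamini-Hochberg), and all kept a negative difference. Total scaling moved the median log2 difference of all genes to -0.31 and of the 38 segments to -0.60. The sums, the evenness, the Trbj2 share and the superantigen list share kept their direction in all 8 alternatives run on each. Depth is unknown, and 3 libraries a group limit the precision.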
